A study of Mus musculus with 35 samples.

Results

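Oxidative phosphorylation is carried out in the inner mitochondrial membrane, where complexes I to IV pass electrons from NADH and succinate to oxygen and build a proton gradient that complex V, the ATP synthase, uses to make ATP. Most subunits of these complexes are encoded in the nucleus, and the remaining ones are encoded by the mitochondrial genome. The cleaving mouse embryo inherits its mitochondria from the oocyte, and at the 2-cell stage maternal mRNA is being cleared while transcription from the embryonic genome begins. The genes described here are the nuclear subunit genes of the 5 complexes, taken by symbol from the protein-coding genes of GENCODE M21: Ndufa, Ndufb, Ndufc, Ndufs and Ndufv with a number for complex I, Sdha to Sdhd for complex II, the Uqcr genes and Cyc1 for complex III, Cox4 to Cox8 with a suffix for complex IV, and the Atp5 genes for complex V. The rule took 86 of the 54838 genes in the count tables, of which 37 belong to complex I, 4 to complex II, 9 to complex III, 18 to complex IV and 18 to complex V. The symbol Atp5o stands for separate gene IDs that share 243 exon bases, and each ID is counted as a member of complex V. The rule reads symbols only, and the family was picked with earlier results of these data known. Ndufa4 is counted with complex I because of its symbol, although its protein is known as a subunit of complex IV.

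RNA was sequenced from 35 single mouse embryos of genotype F1(C57BL/6JxCBA/H) at the late 2-cell stage. Every embryo was injected as a zygote 24 h after hCG and collected 48 h after hCG. The 9 DUX-LOF embryos received antisense oligonucleotides against DUX, a transcription factor that switches on many of the earliest genes of the embryonic genome. The 7 SRF-LOF embryos received mRNA of a dominant negative form of serum response factor (SRF), a transcription factor of cytoskeletal and immediate early genes. The 10 double-LOF embryos received both agents, and the 9 control embryos received a scrambled antisense oligonucleotide. The SRF-LOF embryos had no oligonucleotide, and a control mRNA was given in none of the groups, so the effect of the construct and that of injecting an mRNA cannot be told apart. In double-LOF against SRF-LOF, the effect of the DUX oligonucleotides and that of injecting any oligonucleotide cannot be told apart either. SRF-LOF and control embryos differ in both the mRNA and the scrambled oligonucleotide. A library was made from each single embryo. Neither litter nor batch is given by the labels, so a p-value refers to the spread among single embryos. A library reports a whole embryo, in which fewer cells of a type and less RNA per cell cannot be told apart.

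The method, Smart-seq+5', gives 2 count tables per library: reads from internal fragments and reads from the 5' ends of transcripts. They come from the same embryos and are not independent replicates of each other. Gene counts ran from 220921 to 2039475 per embryo in internal reads and from 505157 to 2343900 in 5' reads. The members took between 0.224% and 0.628% of the internal counts. Srf was at 351 ± 236 CPM in SRF-LOF embryos and 726 ± 545 CPM in double-LOF embryos, against 24.9 ± 11.4 CPM in control embryos (SD, n = 7, 10 and 9), and reads of an injected construct and of the endogenous gene cannot be told apart. Duxf3, the gene that encodes DUX, was at 16.3 ± 38.9 CPM in DUX-LOF embryos and 8.95 ± 7.24 CPM in control embryos (log2 fold change 0.90 ± 0.79 SE, edgeR adjusted p = 0.478), and the highest DUX-LOF value, 119.7 CPM, came from embryo 10. Of the 10 late 2-cell markers, 8 fell and 1 rose in DUX-LOF embryos. Among those that fell was Zscan4f (log2 fold change -4.39 ± 0.68, edgeR adjusted p = 2.41e-05), whose near-identical copies can split reads. The marker that rose was B020004J07Rik (4.18 ± 0.52, edgeR adjusted p = 6.99e-07). The 10 markers summed to between 250.6 and 533.9 CPM in DUX-LOF embryos and between 366.2 and 6839.98 CPM in control embryos. The part of developmental timing in the results was not tested. Of the cumulus, sperm and blood cell markers, 2 of 8, 0 of 6 and 3 of 6 passed the filter on low counts. The blood marker Cd68 rose in DUX-LOF against control (1.91 ± 0.54, edgeR adjusted p = 0.0110), and Lyz2 rose in double-LOF against SRF-LOF (2.44 ± 0.93, adjusted p = 0.0463). The summed blood markers were at 97.97 ± 31.4 CPM in DUX-LOF embryos and 63.9 ± 46.1 CPM in control embryos, and their part in the results was not tested.

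SRF-LOF embryos 3 and 8 stood apart from their group. On the component that took 34.0% of the variance of all tested genes they lay at -35.4 and -8.73, while the other 5 SRF-LOF embryos lay between 97.9 and 136.3. Control embryos spread from -80.3 to 102.0 on the same component, and control embryos 2, 9 and 8 were the highest at 102.0, 78.2 and 49.2. Results that rest on SRF-LOF 3, SRF-LOF 8 or DUX-LOF 10 are given with and without these 3 libraries. They were set apart by expression values of this study, so a count without them is a description and not an independent test.

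Levels are given as CPM, a gene's counts relative to the library total after TMM scaling, and per kilobase of exon where genes are compared with each other. Averaged over the 35 embryos, Cox8a, a small structural subunit of cytochrome c oxidase (complex IV), had the highest internal level of all members at 646.9 ± 304.1 CPM per kb (SD). Atp5b, the catalytic beta subunit of ATP synthase, followed at 193.9 ± 73.4 CPM per kb, and Atp5a1, the alpha subunit, was at 65.1 CPM per kb. In complex I the leading members were Ndufb6 at 80.6 and Ndufa2 at 78.9 CPM per kb, both accessory subunits. In complex II they were Sdha, the flavoprotein that oxidises succinate, at 28.8 and Sdhd, a membrane anchor, at 12.5 CPM per kb. In complex III they were Uqcr10 at 54.9 and Uqcrfs1, the Rieske iron-sulfur protein, at 37.3 CPM per kb.

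Cox5a and Cox5b, 2 different subunits of complex IV, were at 39.6 and 27.4 CPM per kb, with Cox5a higher in 28 of 35 embryos. Where a subunit has tissue isoforms, the ubiquitous form was the more abundant in most pairs. Cox6a1 was at 91.9 ± 44.6 CPM per kb and its heart and muscle form Cox6a2 at 12.7 ± 13.8 CPM per kb, with Cox6a1 higher in 35 of 35 embryos. Cox4i1 was at 26.03 and Cox4i2 at 4.58 CPM per kb, Cox7a2 at 55.3 and the muscle form Cox7a1 at 2.27 CPM per kb, and Ndufa4 at 48.2 and Ndufa4l2 at 0.542 CPM per kb, again with the first of each pair higher in 35 of 35 embryos. Cox7a2l, which is known as a factor of respiratory supercomplexes, was at 28.8 CPM per kb and below Cox7a2 in 32 of 35 embryos. Cox6b was the exception: Cox6b2, known as the testis form, was at 122.6 ± 60.9 CPM per kb, against 56.1 ± 33.7 CPM per kb for the ubiquitous Cox6b1, and was higher in 31 of 35 embryos. The 3 genes for the c subunit of ATP synthase encode the same mature protein, and Atp5g1 led at 43.6 CPM per kb, above Atp5g2 at 9.42 in 29 embryos and above Atp5g3 at 8.58 in 35. Cox8b and Cox8c, the muscle and testis forms of Cox8a, had 1 and 59 internal counts over all 35 embryos.

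With TMM scaling to all genes, the summed mRNA of the respiratory complexes was lower in DUX-LOF than in control embryos, while relative to maternal oocyte transcripts the difference was 0.15 on the log2 scale in internal reads. Summed over the 86 members, internal reads gave 2684, 3090 and 3610 CPM (lowest, median and highest) in DUX-LOF embryos, against 3806, 4300 and 6687 CPM in control embryos. Every DUX-LOF embryo lay below every control embryo. The 5' reads gave 4293, 5734 and 6511 CPM in DUX-LOF embryos, against 8155, 9918 and 11666 CPM in control embryos, again with no overlap. Without TMM factors, as a plain share of gene counts, the groups overlapped in both read classes. In internal reads the shares were 0.312% to 0.394% in DUX-LOF and 0.333% to 0.628% in control embryos. In 5' reads they were 0.544% to 0.748% and 0.592% to 1.13%. The difference in mean log2 of the internal sums was -0.64, and it was -0.57 without Atp5b, the member with the most counts, where 8 of 9 DUX-LOF embryos lay below every control embryo. Per count of the ERCC spike-ins, synthetic RNAs added to each library, it was -0.61 and the groups overlapped. In 5' reads it was -0.85, and -0.03 per count of the maternal oocyte transcripts. Complex V summed to 1135 to 1616 CPM in DUX-LOF embryos and 1683 to 3254 CPM in control embryos, also with no overlap. Complex II, at 110.4 ± 17.2 CPM in DUX-LOF embryos and 146.8 ± 52.8 CPM in control embryos (SD, n = 9 each), overlapped. The maternal oocyte transcripts themselves summed to 20815 ± 4857 CPM in DUX-LOF embryos and 36392 ± 9811 CPM in control embryos, so the maternal ratio sets the members against a list that was itself lower.

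**Figure D1:**
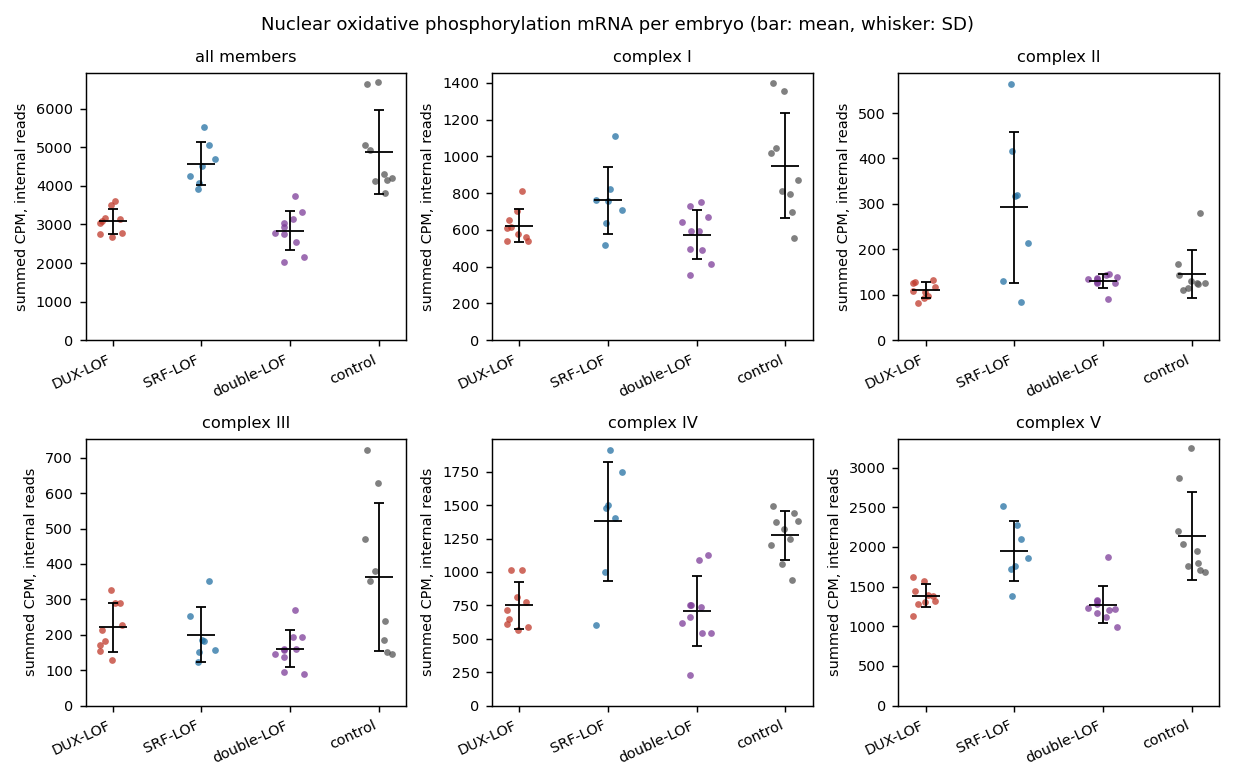
Summed CPM of the members in internal reads, for all members and for complexes I to V, with 1 point per embryo, a bar at the mean and whiskers for the SD (n = 9 DUX-LOF, 7 SRF-LOF, 10 double-LOF and 9 control). For all members the DUX-LOF embryos lie between 2684 and 3610 CPM and the double-LOF embryos between 2031 and 3731 CPM, below the SRF-LOF embryos (3925 to 5520 CPM) and the control embryos (3806 to 6687 CPM); per count of the maternal oocyte transcripts the difference between DUX-LOF and control turned to 0.15 on the log2 scale.

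By edgeR's quasi-likelihood test with Benjamini-Hochberg adjustment over all 12261 genes tested, at an adjusted p under 0.05, 13 of the 69 members tested fell in DUX-LOF embryos (18.8%) and 0 rose, beside 8.21% of all genes called lower. The 17 other members did not pass the filter on low counts. No share of all genes called higher is set beside the 0 that rose, here and in double-LOF against control and against SRF-LOF. The fitted log2 fold change was below 0 for 59 of the 69, with a median of -0.53 over the members and -0.08 over all genes. Set relative to the median of all genes, the members' median was -0.46 with TMM scaling, -0.42 with ERCC scaling and -0.54 with scaling to the maternal list, a scaling that by itself moved the median of all genes by 0.76. A scaling moves all genes of a library alike, so these relative values are near each other by construction and do not test the scaling. The members' own median was 0.14 with scaling to the maternal list. In 5' reads 19 of 76 members fell (25%) and 0 rose, beside 8.39% of 11889 genes called lower, and 12 of the 13 members that fell in internal reads were among the 19. The 7 that passed in 5' reads alone were the complex I subunits Ndufa1 (-1.14), Ndufa6 (-1.22), Ndufa12 (-1.65), Ndufb8 (-1.11) and Ndufv2 (-0.99) with Uqcr10 (-1.39) and Cox6a1 (-1.005), on the log2 scale. With ERCC scaling 4 members fell in each read class, and scaled to the maternal list 0 fell and 3 rose in internal reads. Without the 3 libraries set apart, 7 of 71 members fell in internal reads (9.86%), beside 7.57% of all genes, and 19 of 78 fell in 5' reads (24.4%), beside 7.89%. The internal share was then near that of all genes. Leaving out DUX-LOF 10 alone left 5 members in internal reads, namely Atp5b, Ndufb6, Cox5a, Uqcrq and Ndufa4, and the count was also lower by more than 1.5 times without DUX-LOF 3 (7), 7 (8), 11 (8) or 12 (6) or control 10 (8). The share of all genes called is not given for these fits or for other scalings, here and in the later comparisons. Those counts can therefore not be read as an excess over all genes.

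Members of every complex except complex II were among the 13. Atp5b (chr10:128083273-128090391, plus strand, GRCm38) was at 498, 538 and 643 CPM (lowest, median and highest) in DUX-LOF embryos, against 705.5, 1011 and 1380 CPM in control embryos, and all DUX-LOF embryos lay below all control embryos. Its log2 fold change was -0.89 ± 0.16 (SE, edgeR adjusted p = 0.000127). Scaled to ERCC counts it was -0.83 and did not pass (adjusted p = 0.0699). Ndufa4 (chr6:11900292-11907497, minus strand) was at 11.7, 41.0 and 62.2 CPM in DUX-LOF embryos, against 68.8, 114.1 and 156.2 CPM in control embryos, also with no overlap, and changed by -1.51 ± 0.34 (adjusted p = 0.00183). Ndufb6, an accessory subunit in the membrane arm of complex I (chr4:40270591-40279421, minus strand), was at 19.8, 31.1 and 53.2 CPM in DUX-LOF embryos, against 41.6, 82.6 and 129.9 CPM in control embryos, where only the lowest control reached into the DUX-LOF range. Its log2 fold change was -1.46 ± 0.30 (adjusted p = 0.000888). Cox5a, a nuclear-encoded subunit of cytochrome c oxidase (chr9:57521274-57532426, plus strand), was at 15.1, 40.0 and 76.6 CPM in DUX-LOF embryos, against 56.1, 101.4 and 153.5 CPM in control embryos, where 1 embryo of each group reached into the range of the other. It changed by -1.42 ± 0.30 (adjusted p = 0.000937). Uqcrq, a small subunit of complex III known as the ubiquinone-binding protein (chr11:53427922-53430831, minus strand), was at 3.96, 7.57 and 24.7 CPM in DUX-LOF embryos and 11.6, 31.5 and 76.7 CPM in control embryos, and 3 embryos of each group lay within the range of the other. It changed by -1.88 ± 0.41 (adjusted p = 0.00126). These 5 calls were kept in all 35 fits that left out 1 library.

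The other 8 members that fell in DUX-LOF embryos had adjusted p between 0.0198 and 0.0465. They were the complex I subunits Ndufa2 (log2 fold change -1.13) and Ndufb10 (-1.79), Uqcrfs1 (-1.45), the complex IV subunits Cox7a2 (-0.85), Cox6b2 (-0.81) and Cox8a (-0.78), and Atp5g2 (-1.39) and Atp5s (-2.06) of complex V. Over the 35 fits that left out 1 library, Uqcrfs1 lost its call in 15, Atp5g2 in 14, Cox8a in 13 and Cox6b2 in 11. Ndufb10 and Atp5s lost theirs in 8 each, Cox7a2 in 6 and Ndufa2 in 1. Atp5s encodes coupling factor B rather than a core subunit, and with a mean of 3.39 CPM in DUX-LOF embryos it was among the members with the fewest counts. Cox8a was at 199, 260 and 457 CPM in DUX-LOF embryos, against 323, 424 and 709 CPM in control embryos, where 2 DUX-LOF embryos lay above the lowest control, and its direction turned (0.02) when libraries were scaled to the maternal list. Of complex II, 0 of 4 members changed by edgeR in DUX-LOF embryos, and their fold changes ran from -0.56 to 0.71. With TMM scaling all 13 tested members of complex IV had a log2 fold change below 0, with a median of -0.79, and 23 of 27 members of complex I did, with a median of -0.45.

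**Figure D2:**
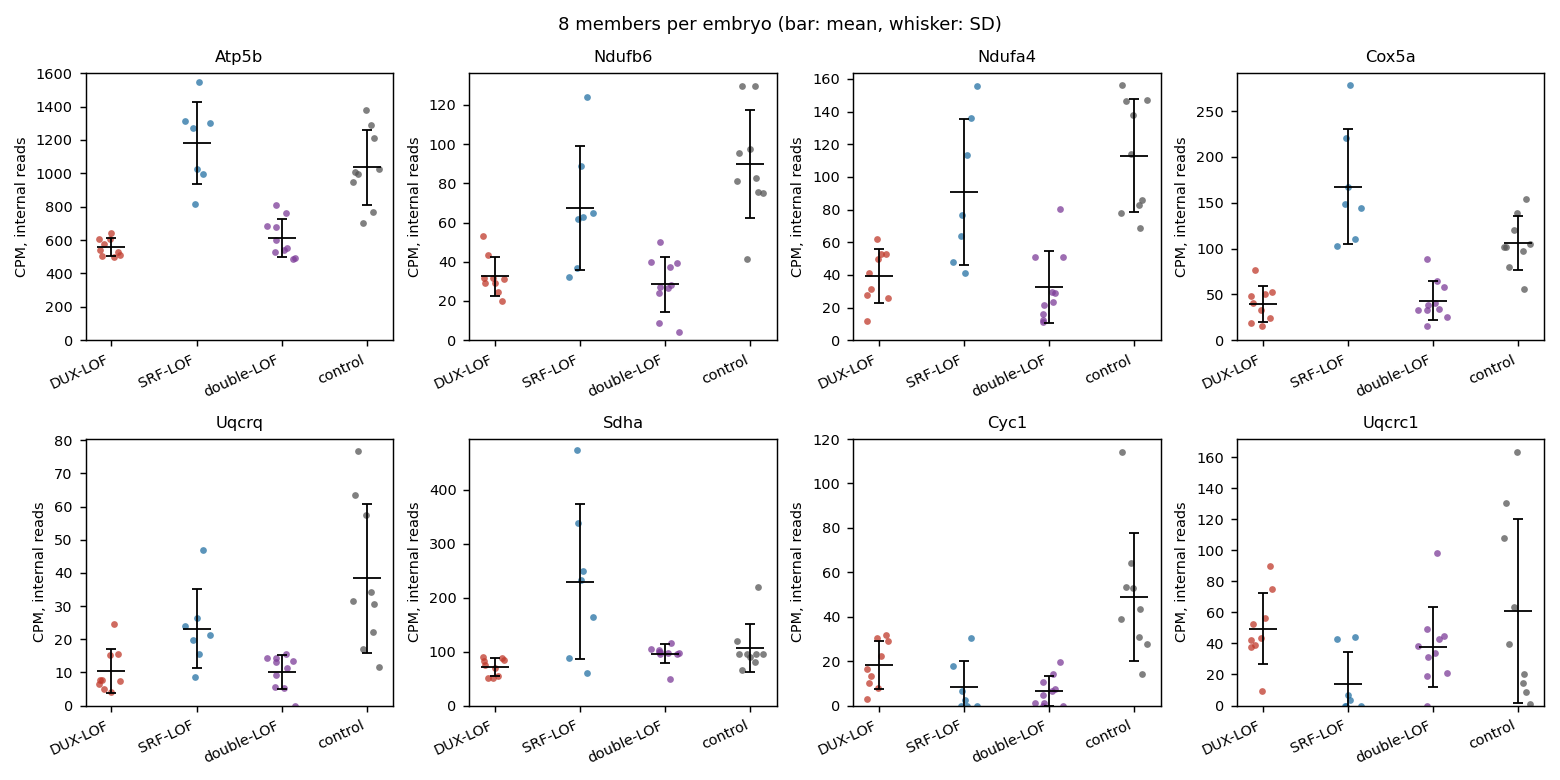
Internal CPM of 8 members, with 1 point per embryo, a bar at the mean and whiskers for the SD (n = 9 DUX-LOF, 7 SRF-LOF, 10 double-LOF and 9 control). Atp5b and Ndufa4 do not overlap between DUX-LOF and control embryos, while Sdha is high and Cyc1 and Uqcrc1 are at or near 0 in 5 of the 7 SRF-LOF embryos.

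The promoters of members that fell together are shown because nuclear subunit genes are known to share binding sites for NRF1, the ETS factor GABP and YY1 near their start sites. RefSeq windows on GRCm38.p6, from 250 bases before to 50 bases after the transcription start, were found for 68 of the 86 members and were read 5' to 3' on the gene's strand. Both strands were searched for AAGATGGC (YY1), CCGGAAG (ETS), GGGCGG (GC box), the palindromic NRF1 motif that stands in capitals in the Uqcrc1 window, and the CArG box of SRF. Each match stands in capitals, including matches on the other strand, and an ETS match that runs into a YY1 match through the shared AAG counts for both. Matches are a description of letters and not sites of binding. The windows of Atp5b (chr10:128083057-128083356, plus strand), Ndufb6 (chr4:40279372-40279671, minus strand) and Cox5a (chr9:57520982-57521281, plus strand) belong to 3 of the members with the smallest adjusted p, and Uqcrc1 (chr9:108936398-108936697, plus strand), a core subunit of complex III described further on, holds an NRF1 motif.
Atp5b: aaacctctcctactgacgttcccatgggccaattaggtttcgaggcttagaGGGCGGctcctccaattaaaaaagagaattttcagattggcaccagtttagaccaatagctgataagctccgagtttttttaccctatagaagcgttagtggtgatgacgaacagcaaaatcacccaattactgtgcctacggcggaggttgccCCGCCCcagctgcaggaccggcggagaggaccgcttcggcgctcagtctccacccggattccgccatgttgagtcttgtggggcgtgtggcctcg
Ndufb6: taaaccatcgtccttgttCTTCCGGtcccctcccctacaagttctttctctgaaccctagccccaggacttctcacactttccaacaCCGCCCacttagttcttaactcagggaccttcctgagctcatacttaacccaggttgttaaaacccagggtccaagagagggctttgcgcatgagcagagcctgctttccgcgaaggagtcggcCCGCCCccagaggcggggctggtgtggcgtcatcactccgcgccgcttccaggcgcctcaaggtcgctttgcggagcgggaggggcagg
Cox5a: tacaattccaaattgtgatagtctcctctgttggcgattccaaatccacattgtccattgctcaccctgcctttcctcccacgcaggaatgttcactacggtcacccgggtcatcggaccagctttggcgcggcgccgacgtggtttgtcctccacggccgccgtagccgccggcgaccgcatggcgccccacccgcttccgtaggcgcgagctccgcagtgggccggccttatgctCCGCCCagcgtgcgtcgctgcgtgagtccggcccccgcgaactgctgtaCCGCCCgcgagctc
Uqcrc1: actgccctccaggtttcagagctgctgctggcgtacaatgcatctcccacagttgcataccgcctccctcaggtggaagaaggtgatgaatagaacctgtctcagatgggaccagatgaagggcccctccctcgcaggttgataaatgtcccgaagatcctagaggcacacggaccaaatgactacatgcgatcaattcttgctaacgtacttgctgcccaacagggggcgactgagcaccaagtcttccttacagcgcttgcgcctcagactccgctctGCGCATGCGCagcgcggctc
In capitals are 2 GC boxes in Atp5b, an ETS motif and 2 GC boxes in Ndufb6, 2 GC boxes in Cox5a and the NRF1 motif in Uqcrc1. The NRF1 letters stood in 5 of the 68 member windows (7.35%), those of Ndufa11, Uqcrc1, Cox6a1, Atp5k and Atp5g2, and in 1.33% of all 21262 windows of protein-coding genes. The YY1 letters stood in 9 member windows (13.2%) and 3.05% of all windows, the ETS letters in 15 (22.1%) and 11.6%, and the GC box in 28 (41.2%) and 46.2%. A CArG box stood in 0 of the 68 member windows and in 1.52% of all windows. Of the 13 members that fell in DUX-LOF embryos, 11 had a window, and these held the NRF1 letters in 1, YY1 in 0, ETS in 2 and the GC box in 7 cases.

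When DUX oligonucleotides were added to the dominant negative SRF, the summed members were again lower with TMM scaling, while relative to the maternal transcripts the difference was 0.34 on the log2 scale. The comparison of double-LOF with SRF-LOF embryos shares no embryo with that of DUX-LOF with control embryos. Unlike that one it has no scrambled oligonucleotide on its other side, so it is not the same contrast in a second background. The internal sums were 2031, 2848 and 3731 CPM in double-LOF embryos, against 3925, 4521 and 5520 CPM in SRF-LOF embryos, with no overlap. In 5' reads they were 3003, 5443 and 7260 CPM in double-LOF embryos, against 7228, 9755 and 12106 CPM in SRF-LOF embryos, and 9 of 10 double-LOF embryos lay below every SRF-LOF embryo. As plain shares of internal gene counts, 0.224% to 0.401% in double-LOF and 0.311% to 0.500% in SRF-LOF embryos, the groups overlapped. The difference in mean log2 of the internal sums was -0.70, and it was -0.35 per ERCC count, where the groups overlapped. The maternal transcripts summed to 28831 ± 12229 CPM in double-LOF and 58363 ± 20617 CPM in SRF-LOF embryos. In internal reads 16 of 69 members fell (23.2%) and 0 rose, beside 12.9% of all genes called lower. Of the 10 late 2-cell markers 7 fell and 1 rose in the same comparison, and 4 of 6 oocyte markers fell. The marker that rose was again B020004J07Rik (3.47 ± 0.52, edgeR adjusted p = 9.61e-06). The part of these markers in the result was not tested. The median was -0.54 over the members and 0.03 over all genes, and relative to all genes it was -0.57 with TMM, -0.56 with ERCC and -0.52 with maternal scaling. These relative values, too, are near each other by construction, and the members' own median was 0.53 with maternal scaling. In 5' reads 22 of 76 members fell (28.9%) and 0 rose, beside 12.8% of all genes. Passing in 5' reads alone were Ndufb2 (-0.93), Ndufb5 (-1.08), Ndufs4 (-1.64), Cox6b1 (-1.05), Cox7a2l (-1.46), Atp5e (-1.08) and Atp5j2 (-1.52). Under ERCC scaling, which moved the median of all genes by 0.39, 3 members fell in internal reads and 5 in 5' reads, and scaled to the maternal list 0 fell and 7 rose in internal reads.

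Cox5a changed most clearly. It was at 15.7, 36.1 and 88.1 CPM in double-LOF embryos, against 102.2, 148.4 and 278.0 CPM in SRF-LOF embryos, with no overlap, and its log2 fold change was -1.95 ± 0.30 (SE, edgeR adjusted p = 1.64e-05). Atp5b was at 489, 576 and 811 CPM in double-LOF embryos, against 819, 1271 and 1547 CPM in SRF-LOF embryos, again with no overlap. Its log2 fold change was -0.94 ± 0.16 (adjusted p = 5.52e-05), and 0.14 when libraries were scaled to the maternal list. Of complex II, 2 of 4 members fell here. Sdha changed by -1.26 ± 0.28 (adjusted p = 0.00100) and Sdhc, the other membrane anchor, by -1.36 ± 0.40 (adjusted p = 0.0106). Scaled to the maternal list, Sdha turned (0.0077). Complex II summed to 130.9 ± 15.6 CPM in double-LOF and 292.5 ± 166.1 CPM in SRF-LOF embryos (SD, n = 10 and 7). Control embryos were at 146.8 ± 52.8 CPM (n = 9), and in double-LOF against control 0 of the 4 were called. The SRF-LOF embryos were thus the high group for complex II. Complex IV had the most calls, with 6 of 13 members lower, namely Cox5a, Cox6b2 (-1.10), Cox5b (-1.38), Cox6c (-1.11), Cox8a (-0.93) and Cox7a2 (-0.83). The remaining calls were Ndufa4 (-1.49), Ndufb6 (-1.21) and Ndufs3 (-1.14) in complex I, Uqcrc2 (-0.99), Uqcrq (-1.13) and Uqcrh (-0.96) in complex III, and Atp5g2 (-1.90) in complex V. Of these, Uqcrq lost its call in 8 of 10 other settings, Uqcrc2, Uqcrh and Cox7a2 in 6 of 10 each, and Ndufs3 in 5 of 10. Scaled to the maternal list, Cox6c (0.071), Cox8a (0.16), Cox7a2 (0.33), Uqcrc2 (0.24) and Uqcrh (0.19) turned.

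Of the members that fell, 9 did so in both comparisons. That is 69.2% of the 13 lower in DUX-LOF against control and 56.2% of the 16 lower in double-LOF against SRF-LOF. The matching share of all genes called lower in both was not counted, so these shares cannot be read as a trait of the members. The 9 were Atp5b, Atp5g2, Cox5a, Cox6b2, Cox7a2, Cox8a, Ndufa4, Ndufb6 and Uqcrq. Without DUX-LOF 10, 5 members were left in DUX-LOF against control, and these 5 were among the 16. Without the 3 libraries set apart, 4 members fell in both, Atp5b, Cox5a, Ndufa4 and Ndufb6, which is 57.1% of 7 and 22.2% of 18. In 5' reads 8 did with all embryos, 42.1% of 19 and 36.4% of 22, and 8 without the 3 libraries. The log2 fold change was below 0 in both comparisons for 44 of 69 members (63.8%), beside 39.7% of all genes. It was below 0 for 59 of the 69 in DUX-LOF against control and for 50 in double-LOF against SRF-LOF. The matching shares of all genes were 53.7% and 48.9%. A share below 0 in both follows in part from these single shares. It therefore does not show that the 2 comparisons agreed more for members than for all genes. Across the 69 members the paired fold changes had Pearson r = 0.36, and across all 12261 genes r = 0.76. These are correlations across genes, which are not independent replicates.

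**Figure D3:**
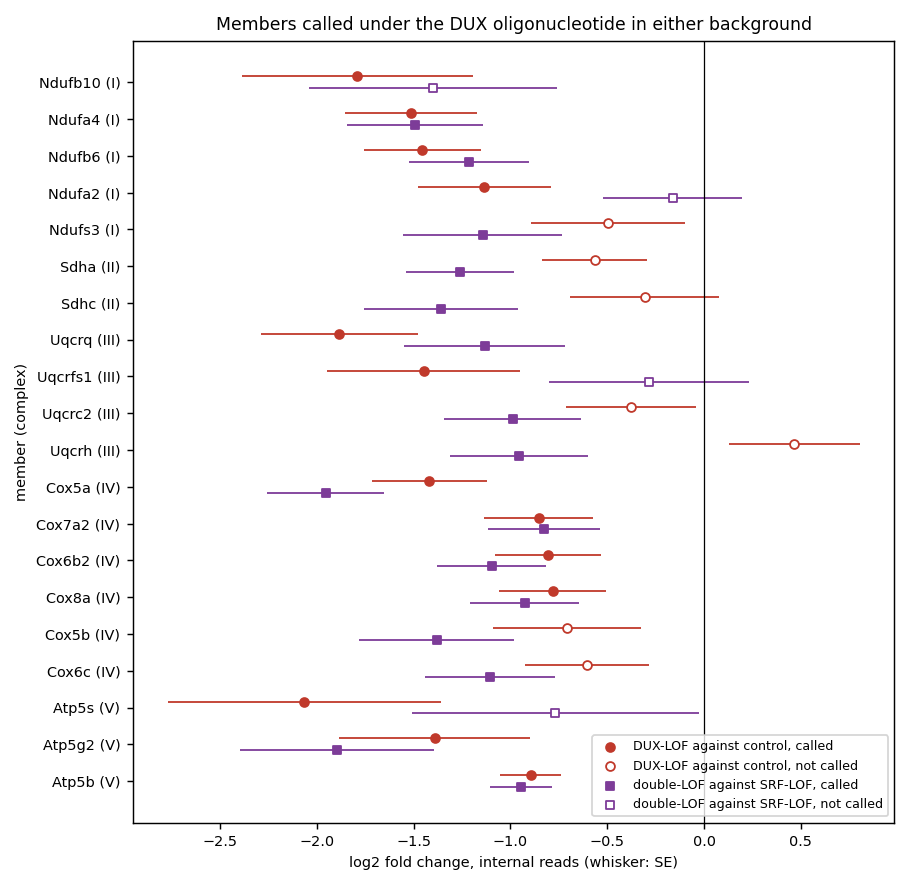
Log2 fold change with SE in internal reads of the 20 members called in either comparison, for DUX-LOF against control (circles) and double-LOF against SRF-LOF (squares), filled where the adjusted p is under 0.05. The 9 members filled in both lie between -0.78 and -1.95, with TMM scaling; scaled to the maternal list, Cox8a turned in both comparisons, and Atp5b, Cox7a2, Cox6c, Sdha, Uqcrc2 and Uqcrh turned in double-LOF against SRF-LOF.

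**Figure D4:**
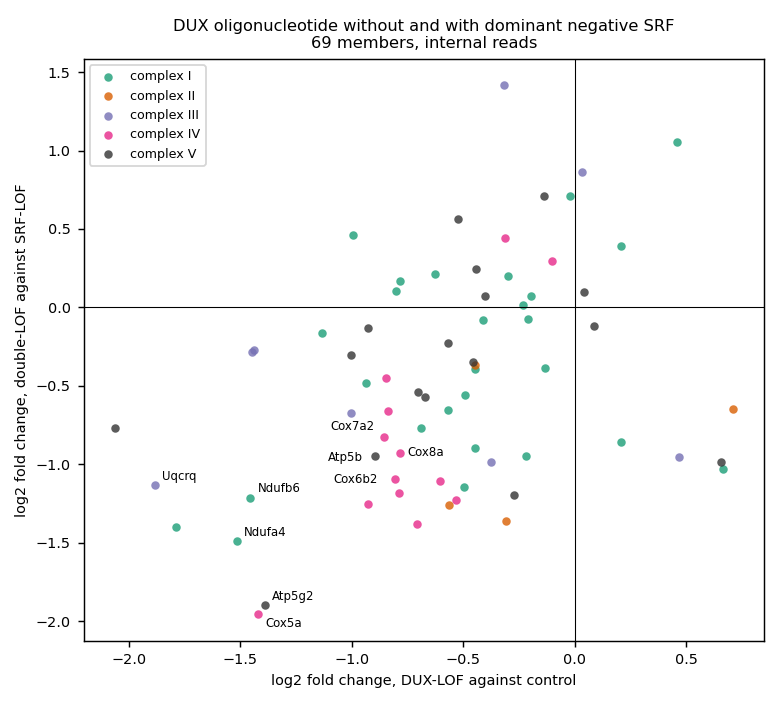
Log2 fold change of the 69 members tested in internal reads, DUX-LOF against control on the horizontal axis and double-LOF against SRF-LOF on the vertical axis, with colours for the complexes. In the lower left quadrant lie 44 members, with TMM scaling; scaled to the maternal list, the members' medians were 0.14 and 0.53.

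With all embryos, more members were called in double-LOF against control than in DUX-LOF or SRF-LOF against control. Without the 3 libraries set apart, SRF-LOF against control had 26 of 71 members called and double-LOF against control 24 of 71. In that setting 33.2% and 21.7% of all genes were called in either direction. The counts of 26 and 24 therefore stand beside unlike shares of all genes and do not rank the comparisons. The internal sums of 2031, 2848 and 3731 CPM in double-LOF embryos lay below the 3806, 4300 and 6687 CPM of control embryos without overlap, and so did the 5' sums. As plain shares of internal gene counts, 0.224% to 0.401% in double-LOF and 0.333% to 0.628% in control embryos, the groups overlapped. The difference in mean log2 of the internal sums was -0.77. Per ERCC count it was -0.72, with 1 of 10 double-LOF embryos below every control embryo, and per maternal count it was -0.38, with 2 of 10. In internal reads 22 of 69 members fell (31.9%) and 0 rose, beside 9.31% of all genes called lower, with a median of -0.75 over the members and -0.04 over all genes. In 5' reads 25 of 76 fell (32.9%) and 0 rose, beside 10.2% of all genes, and 21 members fell in both read classes. Passing in 5' reads alone were Ndufa1 (-1.21), Ndufa12 (-2.04), Ndufb11 (-1.13) and Ndufv1 (-1.57). The count in internal reads was 12 under ERCC scaling, 6 under scaling to the maternal list, 13 with only these 2 groups in the fit and 14 without double-LOF embryo 1. Without the 3 libraries set apart it was 24, of which 22 were the same members. This comparison shares its control embryos with the comparison of DUX-LOF and control, so the 2 counts are set side by side only.

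Ndufb6 was at 4.23, 27.5 and 49.8 CPM in double-LOF embryos, against 41.6, 82.6 and 129.9 CPM in control embryos, and the lowest control lay inside the double-LOF range (log2 fold change -1.63 ± 0.30 SE, edgeR adjusted p = 0.000150). Ndufa4 was at 11.3, 26.1 and 80.4 CPM in double-LOF embryos, against 68.8, 114.1 and 156.2 CPM in control embryos, and a single double-LOF embryo reached into the control range (-1.81 ± 0.34, adjusted p = 0.000185). Complex IV contributed 8 of its 13 tested members: Cox5a (-1.30), Cox7c (-2.76), Cox6c (-0.99), Cox6b1 (-1.12), Cox6b2 (-0.81), Cox5b (-1.12), Cox7a2 (-0.81) and Cox8a (-0.79). Complex V contributed 6 of 17: Atp5b (-0.76), the peripheral stalk subunits Atp5h (-1.52) and Atp5j (-1.92), the c subunit genes Atp5g1 (-1.46) and Atp5g3 (-1.67), and Atp5s (-2.08). Complex III contributed Uqcrq (-1.85), Uqcrfs1 (-1.45), Uqcr10 (-1.16) and Cyc1, which encodes cytochrome c1 (-2.76 ± 0.64, adjusted p = 0.00199). Complex I contributed Ndufb10 (-2.68) and Ndufs7 (-1.87) besides Ndufb6 and Ndufa4, and complex II contributed 0 of 4. The call of Ndufs7 was lost in 23 of the 29 fits without 1 library in which it was tested, and that of Uqcr10 in 26 of 35. Cyc1 was at 0, 5.44 and 19.7 CPM in double-LOF embryos, against 14.1, 43.4 and 114.3 CPM in control embryos, and 2 double-LOF embryos reached into the control range. Atpif1, the inhibitor of ATP synthase, is not a member and changed by -1.42 ± 0.51 in double-LOF against control (adjusted p = 0.0471) and by -0.84 ± 0.52 in DUX-LOF against control (adjusted p = 0.282).

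Between double-LOF and DUX-LOF embryos, which differ in the dominant negative SRF, the members gave no calls. By edgeR, 0 of 69 members changed in internal reads, where 6 had an unadjusted p under 0.05 and DESeq2 also called 0. In 5' reads edgeR called 0 of 76, where 11 had an unadjusted p under 0.05. The shares of all genes called were 0.00816% and 0.0168%. The internal sums were 2843 ± 513 CPM in double-LOF embryos and 3086 ± 321 CPM in DUX-LOF embryos (SD, n = 10 and 9), which overlapped. The interaction, which sets double-LOF minus DUX-LOF against SRF-LOF minus control, also called 0 of 69 members by edgeR and by DESeq2, with 4 at an unadjusted p under 0.05. In 5' reads edgeR called 0 of 76 with 8 at an unadjusted p under 0.05, and 0% of all genes were called in both read classes.

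With the dominant negative SRF alone, the internal sum of the members lay within the control range with TMM scaling. It was 3925, 4521 and 5520 CPM in SRF-LOF embryos, against 3806, 4300 and 6687 CPM in control embryos, a difference in mean log2 of -0.07. Per ERCC count the difference was -0.38, and per maternal count it was -0.72, with 3 of 7 SRF-LOF embryos below every control embryo. The maternal transcripts summed to 58363 ± 20617 CPM in SRF-LOF embryos and 36392 ± 9811 CPM in control embryos. In 5' reads the members summed to 7228, 9755 and 12106 CPM in SRF-LOF embryos, against 8155, 9918 and 11666 CPM in control embryos, and 2 of 7 SRF-LOF embryos lay below every control embryo. Among single members, the fitted log2 fold change in internal reads was below 0 for 44 of 69, beside 53.2% of all genes. With all 7 embryos only Sdha was called in internal reads: 1 of 69 members rose and 0 fell, beside 1.37% and 0.652% of all genes, with 16 members at an unadjusted p under 0.05, while DESeq2 called 2 higher and 3 lower. In 5' reads Sdha rose (1.07 ± 0.30, edgeR adjusted p = 0.0499) and Cyc1 (-2.32 ± 0.61, adjusted p = 0.0400) and Atp5h (-1.40 ± 0.36, adjusted p = 0.0365) fell, beside 1.40% and 0.841% of all genes. The median over the members was -0.39, against -0.07 over all genes. The call of Sdha in internal reads was lost in 6 of 10 other settings and in 14 of 35 fits that left out 1 library, where its adjusted p reached 0.176. The number of members called was 16 without SRF-LOF 3, 9 without SRF-LOF 8 and 5 without control 2.

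Sdha (chr13:74322254-74350280, minus strand) was at 88.6, 473.2, 232.0, 338.7, 248.4, 60.6 and 164.7 CPM in SRF-LOF embryos 3 to 9, against 65.4, 94.8 and 218.8 CPM (lowest, median and highest) in control embryos. Embryos 3 and 8, which stood apart, had the lowest values, and the highest control was embryo 2. Its log2 fold change was 1.11 ± 0.29 (SE, edgeR adjusted p = 0.0386) with all embryos and 1.41 ± 0.25 (adjusted p = 0.000221) without the 3 libraries. Cyc1 (chr15:76343523-76346260, plus strand) was at 17.9, 0, 2.65, 6.49, 0, 30.6 and 0 CPM in SRF-LOF embryos 3 to 9, against 14.1, 43.4 and 114.3 CPM in control embryos. Here embryos 3 and 8 had the highest values, and the other 5 all lay below every control embryo. Uqcrc1 (chr9:108936633-108949623, plus strand) was at 42.6, 0, 6.63, 0, 3.86, 44.3 and 0 CPM in the same order, against 1.16, 39.9 and 163.5 CPM in control embryos. Control embryos 9, 2, 8 and 4 had 1.16, 8.96, 14.4 and 20.1 CPM of Uqcrc1, so the low values were not confined to SRF-LOF embryos.

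Without SRF-LOF 3, SRF-LOF 8 and DUX-LOF 10, 5 of 71 members rose and 21 fell in SRF-LOF against control embryos in internal reads, beside 9.85% and 23.3% of all 12586 genes tested. These are 7.04% and 29.6% of the members. In 5' reads 10 of 78 members rose and 22 fell, beside 10.9% and 21.4% of all genes. The 5 that rose in internal reads were Sdha, Sdhd (1.69), the complex I subunits Ndufa10 (1.57) and Ndufb5 (1.55), and Cox5a (0.80). Among the 21 that fell were Uqcrc1 (-4.99 ± 0.96, edgeR adjusted p = 0.000421) and Cyc1 (-4.75 ± 0.86, adjusted p = 0.000247), and 8 members of complex V, among them Atp5d (-4.16), Atp5j (-3.15), Atp5g3 (-2.55), Atp5h (-1.98) and Atp5g1 (-1.93). From complex I they included the electron-transferring subunits Ndufs8 (-3.12) and Ndufv1 (-2.17) and the accessory subunit Ndufa9 (-2.65). These fold changes of members with embryos at 0 depend on the prior count of the fit and are no bounds. Double-LOF against SRF-LOF then had 8 members higher and 18 lower, beside 25.9% and 16.8% of all genes, and 15 of the 16 members called with all embryos were among them. The interaction then called 8 of 71 members in internal reads, beside 7.68% of all genes, and 5 of 78 in 5' reads, beside 6.05%.

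**Figure D5:**
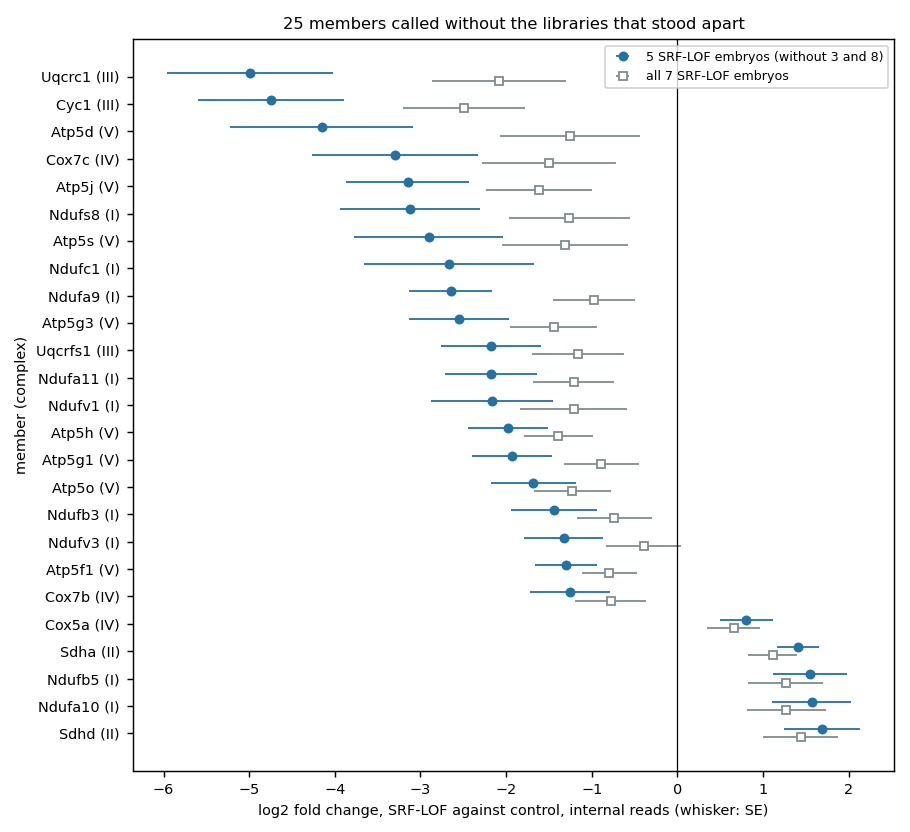
Log2 fold change with SE in internal reads for SRF-LOF against control, for 25 of the 26 members called without the libraries that stood apart (filled, 5 SRF-LOF embryos) and with all 7 SRF-LOF embryos (open). Without them 20 of the members drawn lie below 0, down to -4.99 for Uqcrc1, and 5 lie above 0, up to 1.69 for Sdhd; Ndufc1 was not tested with all embryos.

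Other genes of mitochondrial energy metabolism were counted from lists in the same internal fits. Of the 13 mRNAs of the mitochondrial genome, 0 changed by edgeR in the 5 comparisons between groups, with 1 at an unadjusted p under 0.05 in double-LOF against DUX-LOF and 0 in each of the others; DESeq2 was not run for this list. They summed to 41196 ± 9273 CPM in DUX-LOF embryos and 47776 ± 19964 CPM in control embryos. Of 11 electron carriers and adenine nucleotide exchangers, 4 fell and 1 rose in DUX-LOF against control, and 6 fell and 0 rose in double-LOF against control and in double-LOF against SRF-LOF. Cycs, which encodes cytochrome c, changed by -1.05 ± 0.24 in DUX-LOF against control (edgeR adjusted p = 0.00261), Ndufab1, the mitochondrial acyl carrier protein that is also a complex I subunit, by -1.03 ± 0.22 (adjusted p = 0.00103), and Etfdh, which feeds electrons from fatty acid oxidation into ubiquinone, by 1.75 ± 0.48 (adjusted p = 0.0102). Slc25a5, an ADP/ATP exchanger, changed by -1.66 ± 0.28 in double-LOF against SRF-LOF (adjusted p = 3.84e-05).

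Of 19 genes of pyruvate dehydrogenase and the TCA cycle, 3 fell and 1 rose in DUX-LOF against control, 1 fell (Idh3b) and 0 rose in double-LOF against control, and 5 fell and 0 rose in double-LOF against SRF-LOF. Citrate synthase, Cs, changed by -1.21 ± 0.26 in DUX-LOF against control (edgeR adjusted p = 0.00114) and by -1.07 ± 0.26 in double-LOF against SRF-LOF (adjusted p = 0.00276). Dld, the shared E3 subunit of the 2-oxoacid dehydrogenases, changed by -1.29 ± 0.33 (adjusted p = 0.00585) and -1.24 ± 0.33 (adjusted p = 0.00555) in the same order, and Idh2 was the gene that rose in DUX-LOF (2.23 ± 0.73, adjusted p = 0.0300). Of 35 assembly factors tested, 4 fell in DUX-LOF against control, among them Cox14 (-2.18 ± 0.51) and Sdhaf3 (-2.19 ± 0.54), and 6 fell and 2 rose in double-LOF against SRF-LOF, with Fmc1, an ATP synthase assembly factor, at -2.15 ± 0.42. Of 67 mitochondrial ribosomal proteins tested, 8 fell and 1 rose in DUX-LOF against control, 18 fell in double-LOF against control, and 21 fell in double-LOF against SRF-LOF, where Mrpl3 changed by -2.77 ± 0.38 (adjusted p = 1.75e-06). In SRF-LOF against control 1 of them rose, Mrpl3 (1.33 ± 0.37, edgeR adjusted p = 0.0488), and 1 fell, Mrps26 (-1.47 ± 0.38, edgeR adjusted p = 0.0386). Of 16 glycolysis genes, 0 fell and 1 rose in DUX-LOF against control, with Pfkp at 1.28 ± 0.38 (adjusted p = 0.0184). In double-LOF against control 3 glycolysis genes fell and 0 rose, namely Gapdh (-0.91), Eno1 (-1.19) and Pgam1 (-0.90). Ldha fell in SRF-LOF against control (-1.77), and in double-LOF against SRF-LOF Gapdh fell (-1.001) and Ldha rose (1.53). Of 11 regulators of mitochondrial gene expression, 0 changed in DUX-LOF, SRF-LOF or double-LOF against control by edgeR, with 0, 4 and 3 at an unadjusted p under 0.05, and Yy1 rose in double-LOF against SRF-LOF (2.04 ± 0.53, adjusted p = 0.00422). Each share of a list that fell stands beside the 8.21%, 9.31% and 12.9% of all genes called lower in DUX-LOF against control, double-LOF against control and double-LOF against SRF-LOF. In SRF-LOF against control 1.37% of all genes were called higher and 0.652% lower. For the other comparisons no share of all genes called higher is given, so the list genes that rose there are described only.

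Some counts cannot be assigned to a member alone. Of the 86 members, 30 share exon bases with another gene, 6 of them on the same strand and 26 on the opposite strand, and the strand setting of the counting is not given in the sources used here. This holds for 8 of the 29 members called in internal reads. Ndufb6 shares 257 of its 659 exon bases with Smim27 on the opposite strand, Cox5a shares 269 with Gm26631, Atp5j shares 397 with Gabpa and Uqcrc2 shares 504 with Pdzd9, so reads from these stretches cannot be told apart without strand. A further 4 members have pseudogenes named after them that could take some of their reads.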

How the data were processed

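Single late 2-cell embryos were sequenced by Smart-seq+5' with paired reads of 150 bp, per the labels' protocols. The submitters' processing notes name the aligner STAR 2.7.11a and the genome build GRCm38. How reads were counted (tool, strand, reads with several alignments) is not given in the sources used here. Internal reads were deposited by the authors as raw counts per gene. The 5' reads were handled as estimated counts, although every value deposited by the authors is a whole number, so rounding altered none. Gene names came from GENCODE M21, which named 54809 of 54838 IDs, and 1395 repeat features and 92 ERCC features stayed out of library sizes.

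Library totals ran from 220921 to 2039475 counts in internal reads and from 505157 to 2343900 in 5' reads, so members with few counts have the widest errors. The 4 groups were fitted together with edgeR 4.0.16 (quasi-likelihood test, TMM factors, filterByExpr, limma 3.58.1, R 4.3.3), p-values were adjusted by Benjamini-Hochberg over all genes tested, and the threshold was 0.05. The fit was tested on simulated data. Named are all members past the threshold in a comparison over all embryos with 30 or fewer, the 2 most abundant members per complex, related subunit pairs, Atpif1, and up to 4 called genes per pathway list. Alternatives were DESeq2 1.42.0, its size factors, no filter, other scalings, only the compared groups, a replicate block and left-out libraries. The main fits did not use the replicate numbers in the labels, and whether these pair embryos was not settled. The own values of 1 member are not reported here. The members and gene lists were chosen with earlier results of these data known. The 5' count without SRF-LOF 3, SRF-LOF 8 and DUX-LOF 10 and the sums under other scalings were added after seeing the data.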

Additional observations from a re-analysis of the deposited data

Results flagged for a closer look

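Within the groups of 7 to 10 embryos, 9 of 76 groups of values examined held an embryo far from the others. For independent groups chance gives about 1 in 20, but these groups of values overlap. The sums hold single members, and both read classes come from the same libraries, so no excess over chance can be read from the 9. Double-LOF embryo 2 accounted for 5 of the 9. Its complex II sum was 91.1 CPM in internal reads, with the nearest double-LOF embryo at 125.8 CPM, and its Sdha level was 49.6 CPM, with the nearest at 95.3 CPM. Its complex V sum was 1876 CPM in internal reads (nearest 1327 CPM) and 2365 CPM in 5' reads (nearest 1589 CPM), and its complex III sum in 5' reads was 535.9 CPM (nearest 356.5 CPM). Control embryo 2 had a complex II sum of 280.2 CPM (nearest 167.3 CPM) and Sdha at 218.8 CPM (nearest 120.1 CPM) in internal reads. Control embryo 6 had Cyc1 at 114.3 CPM (nearest 64.0 CPM), and control embryo 9 had a complex IV sum of 5316 CPM in 5' reads (nearest 4441 CPM). What set these embryos apart was not tested.

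The effect of the dominant negative SRF differed with and without the DUX oligonucleotides for 8 members by the interaction term in edgeR, once SRF-LOF 3, SRF-LOF 8 and DUX-LOF 10 were left out. With all embryos 0 members passed. For the 7 members given here the log2 interaction, double-LOF minus DUX-LOF against SRF-LOF minus control, was 4.49 for Uqcrc1 (adjusted p = 0.0162), 3.31 for Cyc1 (adjusted p = 0.0364), 2.09 for Ndufb3 (adjusted p = 0.0411) and 1.90 for Ndufa9 (adjusted p = 0.0404). It was -2.16 for Ndufb5 (adjusted p = 0.0235), -1.71 for Uqcrh (adjusted p = 0.0277) and -1.05 for Sdha (adjusted p = 0.0465). The libraries left out were set apart on the same expression values, and 7.68% of all genes passed in this setting.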

How the results depend on the processing

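Except where it is given above, the share of all genes called in the same setting does not stand beside the counts in this section, which describe the setting only. Scaled to the maternal list, 3 members were called in DUX-LOF against control, all higher (median 0.14), 7 in double-LOF against SRF-LOF, all higher (0.53), 6 in double-LOF against control (-0.31) and 0 in SRF-LOF against control (-0.97). Cox8a in DUX-LOF against control then had 0.020, and in double-LOF against SRF-LOF Cox6c had 0.071, Sdha 0.0077, Atp5b 0.14, Uqcrc2 0.24, Cox7a2 0.33, Cox8a 0.16 and Uqcrh 0.19. With ERCC scaling 4, 0 (median -0.83), 12 and 3 (median -0.14) members were called in DUX-LOF against control, SRF-LOF against control, double-LOF against control and double-LOF against SRF-LOF, and 4, 0, 15 and 5 in 5' reads. The summed difference of DUX-LOF against control per maternal count was 0.15, or -0.035 in 5' reads. That of double-LOF against SRF-LOF was 0.34, or 0.15 in 5' reads, and per ERCC count -0.35, or -0.48 in 5' reads. The cause was not tested.

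SRF-LOF against control gave 0 calls with DESeq2 size factors, with no filter and with only the compared groups, and 5 with DESeq2 in each read class. No filter gave 8 in DUX-LOF against control. Fewer samples in the fit, with only the compared groups, gave 13 in double-LOF against control and 10 in double-LOF against SRF-LOF. Without SRF-LOF 3, SRF-LOF 8 and DUX-LOF 10 the counts were 7 in DUX-LOF against control, 26 in SRF-LOF against control (32 in 5' reads), 26 in double-LOF against SRF-LOF and 8 in the interaction. Leaving out 1 library at a time gave 5 to 14 members in DUX-LOF against control, 0 to 16 in SRF-LOF against control, 14 to 25 in double-LOF against control, 12 to 20 in double-LOF against SRF-LOF, and 0 in double-LOF against DUX-LOF and in the interaction. In SRF-LOF against control 16 were called without SRF-LOF 3, 9 without SRF-LOF 8 and 5 without control 2.

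Whether embryos with the same replicate number deviate together was not settled. Across groups, 41 pairs of the same number had a median r of 0.03 (range -0.56 to 0.54), and 416 pairs of different numbers had 0.001. The r was over 0.1 in 16 of the 41 and in 120 of the 416. Of 35 embryos, 7 correlated best with their own number, and no chance value was computed for this. With the replicate block 6 members were called in DUX-LOF against control, 16 in double-LOF against control and 11 in double-LOF against SRF-LOF, and 0 in SRF-LOF against control in either read class.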
